A study of Mus musculus with 9 samples.

Results

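The comparison described here is that of NHD13 alone with control in LSK cells, the lineage-low Sca1+ Kit+ fraction of mouse bone marrow that holds the stem cells and the multipotent progenitors. It rests on the 2 NHD13 and the 3 control libraries out of 9 in the series. They were chosen by their labels and described over every gene of the table. The control marrow was C57BL/6. The NHD13 marrow carried a NUP98-HOXD13 fusion transgene that the Vav promoter drives across the blood system, which is used as a mouse model of myelodysplastic syndrome. The third group of the series, NHD13/MSI2 (4 libraries), carried in addition a tetracycline-inducible MSI2 and the rTTA activator, and MSI2 was induced in it with doxycycline. In all groups donor marrow was transplanted with helper cells into lethally irradiated congenic recipients, and LSKs were sorted. No gate on donor cells is named for this sort in the study's text. The labels give an age of 4 months, the same strain and the same cell type for all libraries. In the study the cells were taken 4 months after transplantation, and donors were 3 to 4 months old. The study's text places the profiling after 3 months of doxycycline and names no group as an exception, while the labels give no doxycycline for any group.

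NUP98 fusions join the repeat-rich part of a nucleoporin to a chromatin or homeodomain protein, and NHD13 carries the homeodomain of HOXD13. Clustered HOX genes encode homeodomain factors that, with PBX and MEIS proteins as DNA-binding partners, maintain the self-renewal of immature blood cells and are normally shut off as these cells mature. Persistent expression of HOX genes and their cofactors is a known feature of leukaemias with NUP98 fusions.

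Between 19242153 and 23013493 reads per library were counted on named genes in the 5 libraries. Levels are given as CPM (a gene's counts scaled to the size of the library) with TMM scaling, and 3 counts in a library, the lowest level used as a floor, equal 0.128 CPM in control and 0.143 CPM in NHD13. The libraries bore the markers of the sort: Kit lay between 1775 and 2254 CPM in control and at 1931 and 1121 CPM in NHD13, Ly6a (Sca1) between 79.3 and 89.8 CPM and at 69.0 and 48.3 CPM, and Ptprc (CD45) between 518 and 545 CPM and at 649 and 481 CPM. None of these differed at the threshold. Hoxd13, whose homeodomain is in the fusion, had no count in the 3 controls and 0.782 and 0.741 CPM in NHD13, at least 5.93-fold higher (adjusted p = 0.0175, above the threshold of 0.01). Nup98 was at 213, 221 and 229 CPM in control and at 228 and 229 CPM in NHD13. Msi2 was at 223, 316 and 266 CPM in control and at 139 and 111 CPM in NHD13 (log2 fold change −1.11 ± 0.48 SE, adjusted p = 0.358). Both NHD13 libraries lay below every control for Msi2, as in 18.5% of all genes tested. By edgeR's quasi-likelihood test its adjusted p was 0.0343 with the control and NHD13 libraries alone. It was 0.00686 without NHD13/MSI2 replicate 4, the 1 of 24 alternative fits in which Msi2 passed.

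Some libraries stood apart within their groups. Control replicates 1 and 3 carried Xist (888 and 866 CPM) and almost no Y-linked counts, whereas control replicate 2 and both NHD13 libraries carried Y-linked genes and almost no Xist. The labels name LSK for every library, but the library name of control replicate 1 holds the word bulk and those of control replicates 2 and 3 the words MPP and HSC. Immediate-early genes, which rise within minutes of cell stimulation, summed to 1732 CPM in control replicate 1 against 412 and 425 CPM in the other controls, with Fos at 531, 43.9 and 58.9 CPM. The NHD13 libraries resembled each other less than the controls did. Of the genes tested, 14.5% differed by more than 2-fold between the NHD13 libraries and 3.56% to 4.87% between pairs of controls. Pearson's r between libraries on log2 CPM, computed over genes and so over points that are not replicates, was 0.937 between the NHD13 libraries, 0.972 to 0.979 between controls and 0.907 to 0.917 between a control and an NHD13 library.

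NHD13 LSKs differed from control LSKs in 138 of 13355 genes tested (1.03%), with 110 higher (0.824%) and 28 lower (0.21%) in NHD13. The test was edgeR's quasi-likelihood test over all 9 libraries at a Benjamini-Hochberg adjusted p under 0.01, and a gene past it is described as called. The genes that rose included Hoxc4, Hoxc5, Hoxc6 and Hoxc8 of the HOXC cluster, Hoxa5, Hoxa7, Hoxb7, the cofactor Pbx3 and the fetal RNA-binding protein gene Lin28b. Some genes of myeloid and T-lymphoid cells rose as well. Those that fell included the stem cell factor Hlf and Cd34. Changes were large: the median log2 fold change was 3.37 among the higher and −3.02 among the lower genes, against 0.02 over all genes tested, and more than 4-fold changes were seen in 91 genes that rose and 21 that fell. In all 138 genes both NHD13 libraries lay outside the range of the controls. Over all genes tested, both NHD13 libraries lay above all controls in 18.9% and below all controls in 18.5%. In bulk libraries, fewer cells of a type and less RNA per cell cannot be told apart.

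The count of calls depended on the fit. With a term for Y-linked counts, 8 genes were called, all higher in NHD13, namely Cp, F13a1, Lin28b, Nrg4, Padi2, Pbx3, Pyhin1 and Zfpm2. Only control replicates 1 and 3 were almost without Y-linked counts, so that fit in effect compared NHD13 with control replicate 2 alone. All 138 genes kept their direction in it, with a median absolute log2 fold change of 3.28 against 3.30. Their direction could hardly turn, because both NHD13 libraries lay outside the range of the controls in all 138. Of the genes called, 6 lie on X and none on Y. With control replicate 1, 2 or 3 left out, 47, 60 and 37 of the 138 were called, and 91 and 62 without NHD13 replicate 1 or 2, where the remaining NHD13 library is assumed to vary like the other groups. DESeq2 called 594 genes, with all 138 among them.

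**Figure D1:**
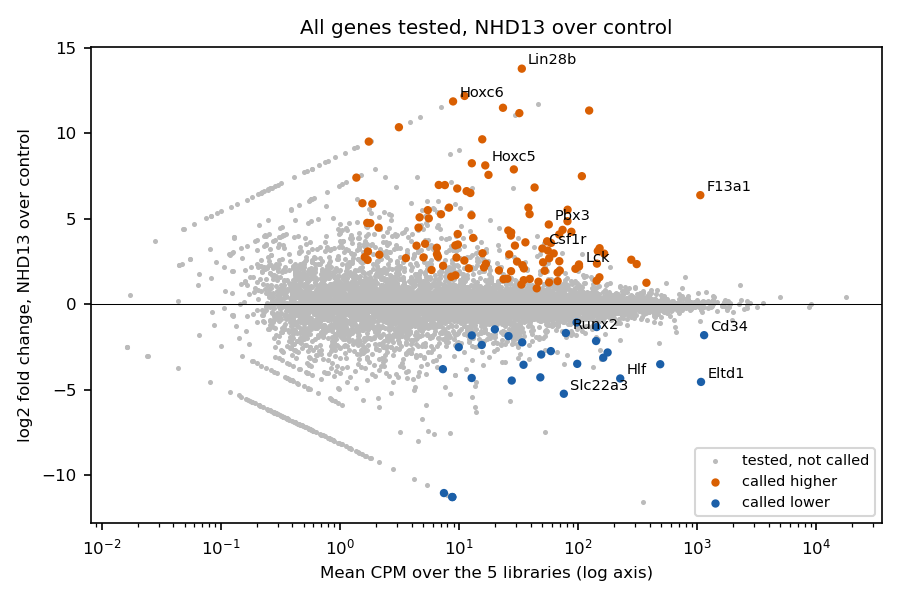
Log2 fold change of NHD13 over control (vertical axis) against mean CPM over the 5 libraries (horizontal log axis) for the 13355 genes tested. Orange points are the 110 genes called higher and blue points the 28 called lower, and straight lines of grey points at low CPM are genes with no counts in one group.

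HOX genes of the C cluster were near 0 in control and were expressed in both NHD13 libraries. All 4 that were tested rose, beside 0.824% of all genes, and their median log2 fold change was 8.89 (7.79 with genes at 0 in control set to their bound). The 5 not tested did not pass the filter on low counts, and 2 of them had no count in any of the 5 libraries. The 4 tested were too low in control to pass that filter and entered the test through the libraries with NHD13. A rise in all 4 was thus largely fixed by the filter, and the contrast with all genes lends it no support. Hoxc4 was at 0.0818, 0.474 and 0.44 CPM in control and at 24.3 and 36.9 CPM in NHD13 (log2 fold change 6.52 ± 0.57 SE, adjusted p = 0.000505). Hoxc5 was at 0.245, 0.0949 and 0.08 CPM in control and at 28.3 and 54.3 CPM in NHD13 (8.13 ± 0.51, adjusted p = 8.42e-05). Hoxc6 had no count in any control and 12.9 and 31.7 CPM in NHD13, at least 174-fold higher (adjusted p = 0.000829). For each of these genes the lower NHD13 library lay far above the highest control. Hoxc8 was at 0, 0.0474 and 0.08 CPM in control and at 13.2 and 65.1 CPM in NHD13, a ratio of 898 with a 95% interval of 307 to 4360 for counting error only (adjusted p = 0.00165). All 4 were higher in NHD13 replicate 2 than in replicate 1, and Hoxc8 differed most, with a log2 ratio of replicate 1 to replicate 2 of −2.30. Each stayed called when either NHD13 library was left out, and Hoxc8 lost its call when any of the controls was. None of the 4 passed with a term for Y-linked counts, where the median of the list was 9.10.

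In the A and B clusters the change was smaller and took in fewer genes. In the A cluster 2 of 9 tested genes rose and in the B cluster 1 of 7, with median log2 fold changes of 1.35 and 1.46, and no gene fell. Hoxa7 was at 18.1, 16.4 and 19.1 CPM in control and at 68.3 and 164 CPM in NHD13 (2.70 ± 0.32, adjusted p = 0.00205). Hoxa5 was at 4.70, 5.03 and 5 CPM in control and at 14.9 and 17.0 CPM in NHD13 (1.70 ± 0.26, adjusted p = 0.00993), a call that held in 8 of 24 alternatives. Hoxb7 was at 0.531, 0.617 and 0.04 CPM in control and at 14.7 and 25.3 CPM in NHD13 (5.66 ± 0.65, adjusted p = 0.00196). In these 3 genes both NHD13 libraries were above every control. Hoxa9, a HOX gene central to self-renewal of leukaemic progenitors, was at 75.0, 72.8 and 104 CPM in control and at 116 and 169 CPM in NHD13 (0.77 ± 0.22, adjusted p = 0.119). Hoxa10 was at 25.5, 29.6 and 33.4 CPM in control and split in NHD13, at 22.9 and 3.75 CPM (adjusted p = 0.489). Of the 2 HOXD genes tested neither was called. The calls of Hoxa7 and Hoxb7 were lost without control replicate 1, and that of Hoxa7 also without control replicate 2 or 3.

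Among the 7 tested HOX cofactors, Pbx3 alone was called. Pbx3, which encodes a homeodomain partner of HOX proteins, was at 6.17, 5.55 and 4.00 CPM in control and at 119 and 149 CPM in NHD13, 25.6-fold higher (4.68 ± 0.21, adjusted p = 1.41e-05). It held in 23 of 24 alternatives, the exception being the names as deposited, under which Pbx3 stands on the counts of another gene. Meis1, which encodes the other main partner of HOX proteins, was at 1014, 704 and 862 CPM in control and at 522 and 158 CPM in NHD13 (−1.34 ± 0.55, adjusted p = 0.323). Both NHD13 libraries were below every control for Meis1, but they differed by 1.73 on a log2 scale from each other.

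**Figure D2:**
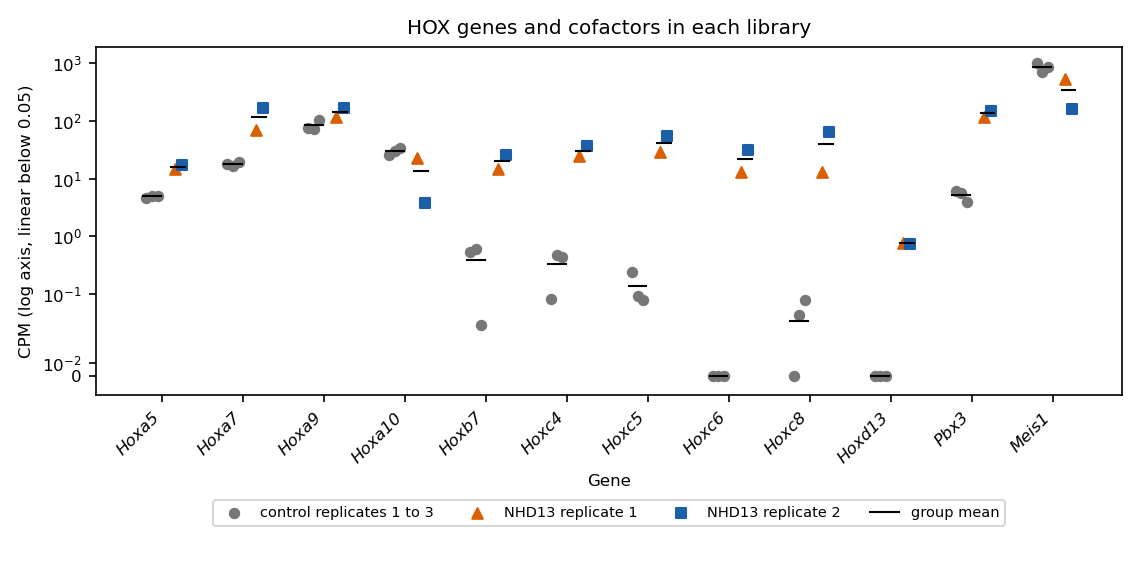
CPM of HOX genes and their cofactors in each library (vertical axis logarithmic, linear below 0.05). Grey points are the 3 controls, the orange triangle and the blue square the NHD13 replicates 1 and 2, and black lines the group means; the HOXC genes, Hoxb7 and Pbx3 lie well above control in both NHD13 libraries, and Meis1 lies below.

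The largest rises were of genes with next to no counts in control. Lin28b, which encodes an RNA-binding protein of fetal stem cells that blocks the maturation of let-7 microRNAs, had no count in any control and 58.5 and 110 CPM in NHD13, at least 656-fold higher (adjusted p = 0.000111). It was called in all 24 alternatives. Zfpm2 (FOG2), a cofactor of GATA factors, was at 0, 0.0474 and 0 CPM in control and at 46.7 and 70.2 CPM in NHD13, a ratio of 4096 with a 95% counting interval of 734 to 161847 (adjusted p = 1.41e-05). Casq2, the calsequestrin of heart muscle, was at 0.123, 0.0949 and 0.12 CPM in control and at 34.1 and 585 CPM in NHD13 (11.34 ± 1.26, adjusted p = 0.0017). Both NHD13 libraries were far above the controls in these 3 genes, but for Casq2 the log2 ratio of replicate 1 to replicate 2 was −4.09. Cdh1 (E-cadherin) was at 0.286, 0 and 0 CPM in control and at 30.4 and 33.3 CPM in NHD13 (8.26 ± 1.04, adjusted p = 0.00312), and Dsp (desmoplakin, which anchors keratin filaments at desmosomes) at 0.531, 0.142 and 0.2 CPM in control and at 107 and 36.5 CPM in NHD13 (7.90 ± 0.92, adjusted p = 0.00205). Of the other genes that the rule on size named, 4921525O09Rik was at least 217-fold and Pgm5 at least 61.0-fold higher than in the controls, which had no count. Gm595 was at 0.0409, 0.0474 and 0 CPM in control and at 33.7 and 127 CPM in NHD13. Its ratio was 2771, with a 95% counting interval of 767 to 22893. Tmem47 rose as well (log2 fold change 7.58 ± 0.83).

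Of the called genes almost silent in control and expressed in both NHD13 libraries, the promoters of Lin28b, Casq2 and Hoxc4 are shown. They are the RefSeq windows of GRCm38.p6 from 250 bases before to 50 bases after the start of the gene, in the direction of transcription. Capitals mark the letters of TGATTNAT, the form that HOX and PBX proteins bind together, and of TTTATTG, a form that HOX13 proteins bind, both searched on either strand. The windows are chr10:45470152-45470451 (minus strand) for Lin28b, chr3:102086165-102086464 (plus strand) for Casq2 and chr15:103034145-103034444 (plus strand) for Hoxc4.
Lin28b: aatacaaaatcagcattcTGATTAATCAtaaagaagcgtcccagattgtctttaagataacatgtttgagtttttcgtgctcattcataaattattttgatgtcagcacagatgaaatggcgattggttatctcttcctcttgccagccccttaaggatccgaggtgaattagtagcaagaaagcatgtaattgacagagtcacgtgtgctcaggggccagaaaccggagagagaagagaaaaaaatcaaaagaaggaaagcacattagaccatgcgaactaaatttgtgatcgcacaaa
Casq2: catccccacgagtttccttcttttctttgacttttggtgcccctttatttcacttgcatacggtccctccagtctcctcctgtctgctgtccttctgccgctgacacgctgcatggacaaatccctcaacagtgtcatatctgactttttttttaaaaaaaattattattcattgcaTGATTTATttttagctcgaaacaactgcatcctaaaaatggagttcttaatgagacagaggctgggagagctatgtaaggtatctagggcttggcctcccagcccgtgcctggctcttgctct
Hoxc4: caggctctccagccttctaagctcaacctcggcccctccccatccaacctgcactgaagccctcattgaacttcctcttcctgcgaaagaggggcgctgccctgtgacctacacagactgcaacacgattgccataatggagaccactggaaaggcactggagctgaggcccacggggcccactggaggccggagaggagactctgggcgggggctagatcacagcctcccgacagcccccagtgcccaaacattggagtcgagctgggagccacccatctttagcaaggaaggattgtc

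The Lin28b window holds TGATTNAT on both strands, the 2 matches overlapping, the Casq2 window holds 1 match, and the Hoxc4 window holds neither motif. Of the genes called higher, 76 have a window in the RefSeq table and 3 of these (3.95%) hold TGATTNAT, namely Casq2, Cp and Lin28b, beside 3.74% of all 27025 genes. TTTATTG stands in 2 of the 76 (2.63%) and in 2 of the 24 genes called lower that have a window (8.33%), beside 5.33% of all. The share among the genes called higher was thus close to that of all genes for TGATTNAT. The windows printed are no typical sample, since Lin28b and Casq2 are 2 of the 3 genes called higher that hold TGATTNAT. A match in letters is no evidence of binding.

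Myeloid genes rose in part. Of 16 tested genes of granulocyte-macrophage progenitors, Csf1r and Ly86 rose and none fell (median log2 fold change 0.45). Of 10 genes of monocytes and macrophages Cd68 rose (median 1.07). Without NHD13 replicate 1 these medians were 0.18 and −1.01, and without NHD13 replicate 2 they were 0.42 and 1.66. Csf1r, the receptor for M-CSF, was at 15.5, 9.01 and 9.19 CPM in control and at 122 and 94.9 CPM in NHD13 (3.27 ± 0.30, adjusted p = 0.000711). Ly86, which encodes the partner of a Toll-like receptor homologue, was at 5.6, 3.61 and 3.52 CPM in control and at 110 and 285 CPM in NHD13 (5.54 ± 0.42, adjusted p = 0.000242). Cd68, a lysosomal membrane protein of phagocytes, was at 25.1, 27.8 and 19.7 CPM in control and at 102 and 87.3 CPM in NHD13 (1.97 ± 0.22, adjusted p = 0.00184). Both NHD13 libraries were above every control for each of these genes. Csf1r and Ly86 kept their calls whichever library was left out, whereas Cd68 lost its call without control replicate 1 or 3 or NHD13 replicate 1. Of 8 genes of primary granules only Prss57, a serine protease of these granules, rose, from 29.9, 37.0 and 29.9 CPM to 85.1 and 169 CPM (1.98 ± 0.27, adjusted p = 0.0054). The median of that list was 0.53, but −0.37 without NHD13 replicate 1 and 1.03 without NHD13 replicate 2. Mpo, myeloperoxidase, was higher in both NHD13 libraries without passing the test, at 3806 and 2958 CPM against 1861, 1589 and 1195 CPM (1.13 ± 0.31, adjusted p = 0.101). Elane, neutrophil elastase, was at 111 and 47.2 CPM against 151, 188 and 90.1 CPM (adjusted p = 0.585).

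Other genes of myeloid and secreted products were singled out after their values were seen. F13a1, the A subunit of coagulation factor XIII, which monocytes and platelets make, was at 40.0, 32.3 and 20.9 CPM in control and at 2239 and 2974 CPM in NHD13 (6.39 ± 0.34, adjusted p = 3.12e-05). Cp, ceruloplasmin, was at 1.27, 0.949 and 0.56 CPM in control and at 125 and 87.7 CPM in NHD13 (6.84 ± 0.32, adjusted p = 1.41e-05). Ctss, the lysosomal protease cathepsin S, was at 34.9, 29.5 and 33.7 CPM in control and at 119 CPM in both NHD13 libraries (1.87 ± 0.16, adjusted p = 0.000505). Both NHD13 libraries lay far above every control for F13a1 and Cp. Padi2, which converts arginine to citrulline in proteins, was at 323 and 334 CPM in NHD13 against 36.1, 37.3 and 27.3 CPM (3.29 ± 0.19, adjusted p = 5.32e-05), and Mab21l2, a developmental gene, at 333 and 200 CPM against 3.23, 0.19 and 0.919 CPM (7.50 ± 0.80, adjusted p = 0.00163).

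Markers of mature cells were measured beside these. Of 11 genes of late neutrophils none was called and 9 had a log2 fold change below 0, with a median of −1.80. Their summed level was 601 and 165 CPM in NHD13 and ranged from 997 to 2699 CPM in control, and the alarmin genes S100a8 (113 and 26.5 CPM against 134, 415 and 150 CPM) and S100a9 lay below every control. Summed over the macrophage list, the level was 271 and 219 CPM in NHD13 and between 44.3 and 76.5 CPM in control. Eosinophil, mast cell, B cell, plasma cell, dendritic, erythroid, megakaryocytic, endothelial and fibroblast lists held no called gene. MHC class II genes, which dendritic and B cells use to present antigen, held none of 10 called, with a median of −1.35. Cd74, the invariant chain of MHC class II, varied among controls, at 606, 266 and 102 CPM, and was at 121 and 30.6 CPM in NHD13. The part that cells of other types have in the rise of the few myeloid genes called was not tested.

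T-lymphoid genes fell into a shared and an unshared set. Of 8 tested T cell genes 3 rose in both NHD13 libraries, beside 0.824% called higher among all genes tested, and the median of the list was 2.67. Other T-lymphoid genes leaned on NHD13 replicate 1. Without it the log2 fold changes of Themis and Trat1, described below, were 2.89 and −0.85, against 11.08 and 6.83 with all libraries. Lck, a kinase of T cell receptor signalling, was at 36.1, 44.1 and 43.7 CPM in control and at 193 and 192 CPM in NHD13 (2.22 ± 0.23, adjusted p = 0.00135). Cd6, a T cell surface receptor, was at 3.52, 1.95 and 3.24 CPM in control and at 20.3 and 18.6 CPM in NHD13 (2.74 ± 0.28, adjusted p = 0.00121), and its relative Cd5 at 0.531, 0.759 and 0.4 CPM and at 3.45 and 3.41 CPM (2.60 ± 0.34, adjusted p = 0.00366). These 3 genes were at nearly the same level in both NHD13 libraries. Cd6 kept its call whichever library was left out, Lck lost it without control replicate 1 or 3, and Cd5 lost it in addition without either NHD13 library. The genes of the T cell receptor complex that define mature T cells, Cd3d, Cd3e and Cd3g, were at or near 0 in all 5 libraries, at most 0.69 CPM.

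The unshared set was high in NHD13 replicate 1 alone, and no gene of it was called. Themis, which acts in the selection of thymocytes, was at 148 CPM in NHD13 replicate 1, at 0.247 CPM in replicate 2 and at 0, 0 and 0.08 CPM in control (adjusted p = 0.0742). Trat1, an adaptor of the T cell receptor, was at 62.9 CPM in replicate 1 and at 0.148 CPM in replicate 2, against 0.204, 0.38 and 0.24 CPM in control. Ccr9, a receptor for homing to the thymus, was at 129 CPM in replicate 1 and at 1.04 CPM in replicate 2, against 1.76, 2.99 and 5.32 CPM in control. In each case replicate 2 was near the controls. Early T-lineage genes singled out after their values were seen had the same pattern: Tcf7 was at 139 and 1.33 CPM, Bcl11b at 42.3 and 0.0494 CPM and Il7r, the receptor for IL-7, at 69.0 and 2.52 CPM in replicates 1 and 2, with at most 4.91 CPM for any of them in control. Summed over the T cell list the level was 468 CPM in replicate 1, 227 CPM in replicate 2 and 45.8 to 56.2 CPM in control. Dntt, which adds bases at the joints of antigen receptor genes and marks lymphoid-primed progenitors, was at 299 and 174 CPM in NHD13 against 242, 271 and 354 CPM. None of 15 tested genes of lymphoid priming was called (median 1.01). That median was −0.36 without NHD13 replicate 1 and 0.79 without NHD13 replicate 2. Flt3, a receptor of multipotent and lymphoid progenitors, was at 586, 581 and 674 CPM in control and at 133 and 445 CPM in NHD13, below every control in both libraries (−1.09 ± 0.46, adjusted p = 0.337).

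The NHD13 libraries also differed in single platelet and erythroid genes. Pf4, platelet factor 4, was at 290 CPM in replicate 1 and at 16.1 CPM in replicate 2, against 21.4, 26.9 and 9.55 CPM in control. Vwf, which marks platelet-biased stem cells, was at 169 CPM and 13.3 CPM, against 75.0, 15.2 and 13.2 CPM in control. Summed over the megakaryocyte list the level was 1698 CPM in replicate 1, 398 CPM in replicate 2 and 674 to 1071 CPM in control, so that the replicates lay on opposite sides of the controls. Car2, a carbonic anhydrase abundant in erythroid progenitors, was at 2201 CPM in replicate 1 but 340 CPM in replicate 2, against 2631, 2393 and 2295 CPM in control, and the erythroid list summed to 2388 and 514 CPM against 2495 to 2900 CPM. None of the 12 and 9 tested genes of these lists was called.

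**Figure D3:**
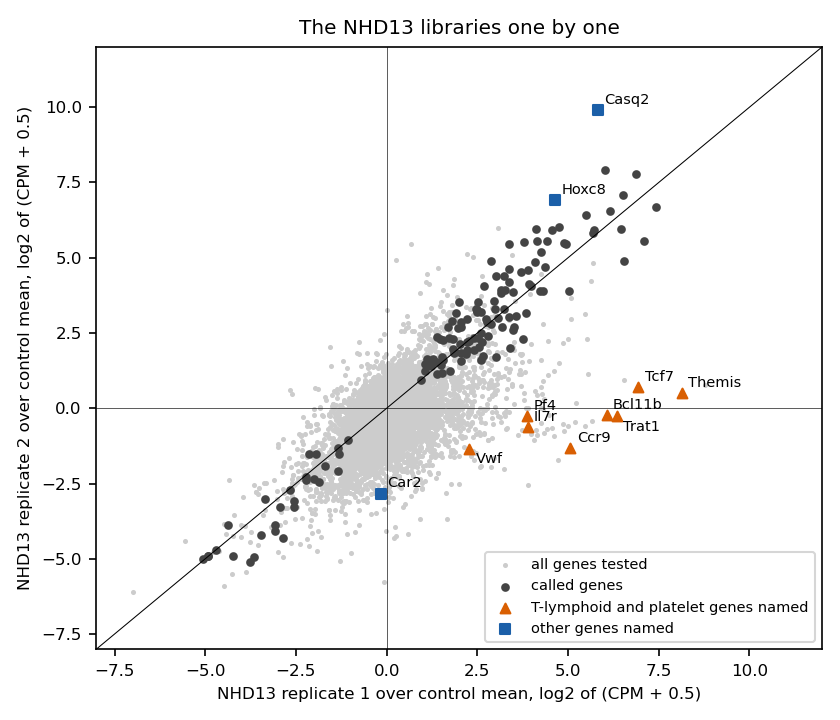
Log2 ratio of each NHD13 library to the control mean on (CPM + 0.5), replicate 1 on the horizontal and replicate 2 on the vertical axis. Dark points, the 138 called genes, lie on the same side of control in both libraries, which calling them favoured, and some lie off the diagonal. Orange triangles (Themis, Tcf7, Bcl11b, Trat1, Ccr9, Il7r, Pf4, Vwf) are high in replicate 1 only. Blue squares mark Casq2 and Hoxc8, which are higher in replicate 2, and Car2, which is low in replicate 2.

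Among the called genes the size of the change also varied between the NHD13 libraries: replicate 2 lay farther from the control mean in 88 and replicate 1 in 50. The called genes that differed most between them by the rule on names were, beside Casq2, Gm595 and Hoxc8, Dach2 (a transcription factor of the dachshund family, 73.4 and 314 CPM in NHD13, 8.50, 6.59 and 4.8 CPM in control) and Eaf2 (a partner of the elongation factor ELL, 6.39 and 27.6 CPM, 0.327, 0.664 and 0.32 CPM in control), which were higher in replicate 2. Dsp, Tmem47 and Endou (an RNA-cleaving enzyme, 32.0 and 11.2 CPM, 3.07, 1.42 and 1.20 CPM in control) were higher in replicate 1. In each of them both NHD13 libraries still lay above all controls.

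Stem cell genes did not move together. Of 20 genes of haematopoietic stem cells 1 was called, Hlf, and the median of the list was −0.21. Hlf, a transcription factor of quiescent stem cells, was at 332, 284 and 477 CPM in control and at 26.1 and 10 CPM in NHD13, 20.2-fold lower (−4.33 ± 0.62, adjusted p = 0.00631). Mecom, which maintains stem cells, was at 144, 76.8 and 125 CPM in control and at 397 and 136 CPM in NHD13 (1.21 ± 0.41, adjusted p = 0.205). The call of Hlf held in 14 of 24 alternatives. It was lost when any 1 control or NHD13 library, or NHD13/MSI2 replicate 1 or 3, was left out of the fit over all groups. The direction of the list median depended on the library: it was −0.89 without NHD13 replicate 1, 0.31 without NHD13 replicate 2, 0.10 without control replicate 1 and 0.23 with a term for Y-linked counts.

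Cd34, a sialomucin that separates multipotent progenitors from the most primitive stem cells in the mouse, was at 1581, 1649 and 1565 CPM in control and at 363 and 555 CPM in NHD13, 3.48-fold lower (−1.80 ± 0.25, adjusted p = 0.00572). It was the 1 called gene among 22 of adhesion and homing, and the call held in 14 of 24 alternatives. It was lost when any 1 control or NHD13 library, or NHD13/MSI2 replicate 2 or 3, was left out of the fit over all groups. Several surface proteins fell further. Slc22a3, a transporter of organic cations, was at 119, 147 and 107 CPM in control and at 3.26 and 3.36 CPM in NHD13, 37.5-fold lower (adjusted p = 0.000711). Eltd1, an adhesion receptor of the G-protein-coupled family, was at 1579, 1882 and 1769 CPM in control and at 93.0 and 57.4 CPM in NHD13, 23.2-fold lower (adjusted p = 0.00165). Il1r1, the receptor for interleukin 1, was at 60.1, 90.2 and 82.5 CPM in control and at 3.26 and 4.79 CPM in NHD13, 19.3-fold lower (adjusted p = 0.00165). In these 3 genes both NHD13 libraries were far below every control. Their calls held in 21 of 23 alternatives for Slc22a3, 21 of 24 for Eltd1 and 20 of 24 for Il1r1.

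Bdh2, a dehydrogenase of iron handling, was at 14.1, 14.8 and 15.1 CPM in control and had no count in either NHD13 library, at least 102-fold lower (adjusted p = 0.00263). Cdcp1, a membrane protein phosphorylated by Src kinases, and Cpxm1, a secreted carboxypeptidase-like protein, likewise had no count in NHD13 and were at least 102-fold and 87.1-fold lower, although Cdcp1 (adjusted p = 0.00993) held in 10 of 24 alternatives. Col4a1, a collagen of basement membranes, was at 11, 12.9 and 11.1 CPM in control and at 0.69 and 0.988 CPM in NHD13 (−3.79 ± 0.56, adjusted p = 0.00753). Gcnt2, which branches the glycans of the I blood group, was at 792, 612 and 906 CPM in control and at 91.4 and 44.7 CPM in NHD13 (−3.50 ± 0.53, adjusted p = 0.00814). Arhgap32, a GTPase-activating protein, Gm13251 and Pcp4l1 fell by 4.45, 4.31 and 3.53 on the log2 scale. Runx2, a RUNX factor of bone and blood, was the 1 gene called of 28 haematopoietic transcription factors, at 102, 122 and 103 CPM in control and at 42.9 and 25.3 CPM in NHD13 (−1.67 ± 0.23, adjusted p = 0.00513). Its call held in 11 of 24 alternatives and was lost without any 1 control, NHD13 replicate 2 (adjusted p = 0.016) or NHD13/MSI2 replicate 1, 2 or 3. Nkg7, a granule protein of cytotoxic lymphocytes, was at 264, 365 and 179 CPM in control and at 45.1 and 31.6 CPM in NHD13 (−2.81 ± 0.34, adjusted p = 0.00244), and no other of the 7 NK cell genes tested was called. Calls held in 17, 14, 14 and 15 of 24 alternatives for Bdh2, Cpxm1, Col4a1 and Gcnt2, and in 15 of 23 for Nkg7.

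The number of genes called lower varied with the fit. It was 28 as reported, 2 when NHD13 replicate 2 was left out, 30 without NHD13 replicate 1, 4, 9 and 5 without control replicates 1, 2 and 3, and 0 with a term for Y-linked counts, where 1059 genes of either direction had an unadjusted p under 0.05 by edgeR. With the control and NHD13 libraries alone it was 29, beside 54 called higher, and DESeq2 called 222 genes lower. All 28 kept their direction in those fits, which their lack of overlap with the controls largely fixed in advance.

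**Figure D4:**
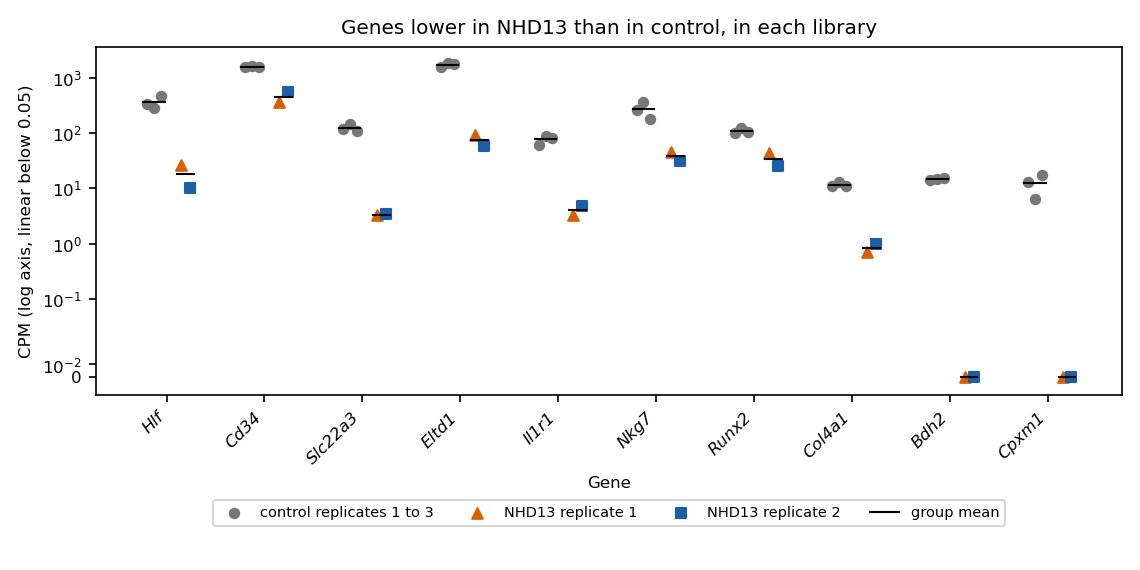
CPM in each library of 10 genes called lower in NHD13 (vertical axis logarithmic, linear below 0.05). Grey points are the 3 controls, the orange triangle and the blue square the NHD13 replicates 1 and 2, and black lines the group means; Bdh2 and Cpxm1 are at 0 in both NHD13 libraries.

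No gene of the cell division lists was called. Of 18 genes of G2 and mitosis 17 had a log2 fold change below 0, with a median of −0.38, and both NHD13 libraries lay below every control in 14, beside 18.5% of all genes tested. Top2a, the topoisomerase of dividing cells, was at 1072, 1350 and 1227 CPM in control and at 862 and 952 CPM in NHD13 (−0.42 ± 0.19, adjusted p = 0.362). The median over the 24 genes of the G1/S transition was −0.18, with 17 of them below 0 and both NHD13 libraries below every control in 6. Without NHD13 replicate 1 that median was −0.03, with 14 of the 24 below 0. None of the 5 tested inhibitors of cyclin-dependent kinases was called, and Cdkn2a, with at most 0.138 CPM, was too low to be tested.

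Pmaip1 (NOXA), a BH3-only protein that promotes apoptosis and is a target of p53, was called in both lists that hold it. It was at 2.25, 1.90 and 1.88 CPM in control and at 21.6 and 38.1 CPM in NHD13, 14.8-fold higher (3.89 ± 0.45, adjusted p = 0.00196), and was the 1 gene called of 17 p53 targets (median 0.52) and of 16 genes of survival and cell death (median 0.38). Dlk1, a Notch-related protein from an imprinted locus, was the 1 called of 11 imprinted genes (median 0.29), at 0.164, 0.19 and 0.08 CPM in control and at 8.32 and 29.3 CPM in NHD13 (6.98 ± 0.76, adjusted p = 0.00165). Beside Csf1r, the list of growth factor and cytokine receptors held 1 more called gene of 20, Il18r1, the receptor chain for interleukin 18, at 17.6, 21.8 and 15.0 CPM in control and at 114 and 85.6 CPM in NHD13 (2.46 ± 0.35, adjusted p = 0.00606).

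Genes that report RAS-MAPK signalling held no call among 11 tested and had a median of −1.34. Dusp6, the phosphatase that ERK signalling induces, was at 174, 148 and 115 CPM in control and at 65.2 and 33.4 CPM in NHD13 (−1.56 ± 0.30, adjusted p = 0.0245). The median was −2.12 without NHD13 replicate 1, −0.50 without NHD13 replicate 2 and −0.95 without control replicate 1, the library with high immediate-early genes. Lists of interferon response (20 genes, median −0.31), TGF-beta and BMP signalling (19, −0.45), WNT and Notch signalling (15, −0.02) and epigenetic and splicing genes mutated in myelodysplastic syndrome (22, 0.06) held no called gene.

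**Figure D5:**
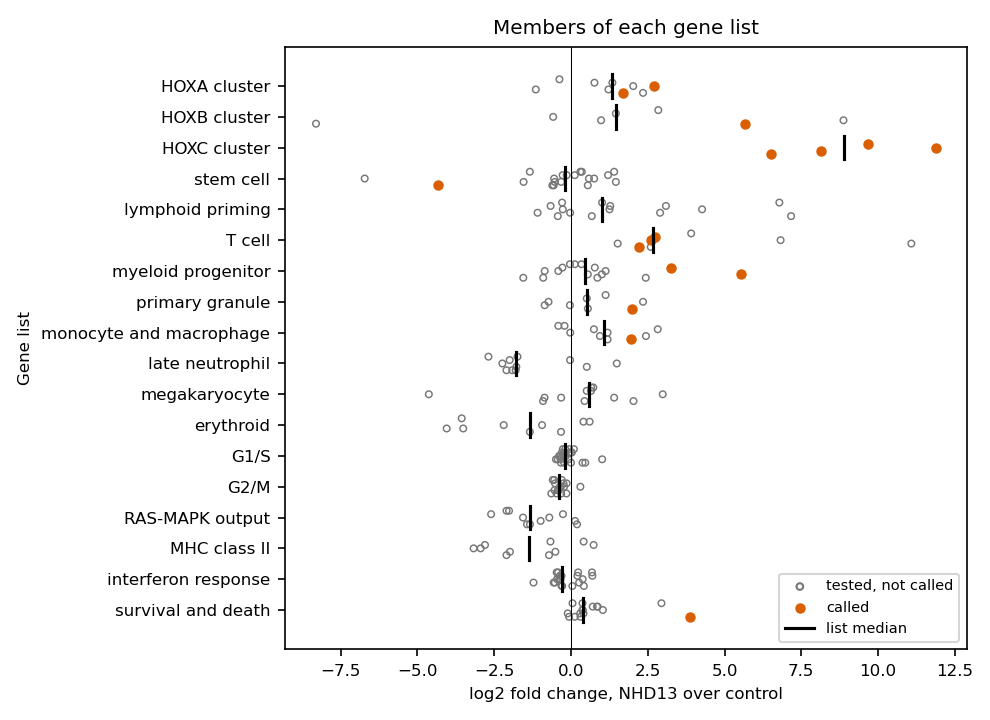
Log2 fold change of NHD13 over control (horizontal axis) for the tested members of 18 gene lists. Orange points are called genes, open points are tested genes that were not called and black bars are list medians; the 4 HOXC genes all lie above 6 and the cell cycle lists lie close to 0.

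The effect of NHD13 alone was compared with that of NHD13/MSI2. NHD13/MSI2 differed from NHD13 in 423 genes (3.17%). Both contrasts use the same 2 NHD13 libraries, so the values below are given side by side and are not independent. The levels of Lin28b (50.6 to 81.2 CPM), Zfpm2 (58.2 to 96.5 CPM), Pbx3 (137 to 156 CPM), Hoxc4 (14.1 to 28.3 CPM), Hoxc5 (17.3 to 30.5 CPM) and Hoxc6 (6.75 to 13 CPM) in the 4 NHD13/MSI2 libraries did not differ at the threshold from those in NHD13. The difference of NHD13/MSI2 from NHD13 was 0.27 ± 0.29 SE for Zfpm2 and 0.11 ± 0.19 for Pbx3 on the log2 scale. Other genes that rose in NHD13 were low in NHD13/MSI2. Casq2 was at most 0.195 CPM in NHD13/MSI2 (adjusted p = 0.000916), Dlk1 at most 0.0905 CPM (adjusted p = 0.000698) and Hoxc8 between 0.517 and 1.85 CPM (adjusted p = 0.0029), although all 3 were present in both NHD13 libraries. Hlf and Meis1 were lower still in NHD13/MSI2, at 0.0499 to 0.779 CPM and 4.16 to 11.7 CPM (adjusted p = 0.00108 and 0.0007). Lck was at 48.4 to 83.7 CPM, between control and NHD13, whereas Cd6 (83.7 to 137 CPM) and Csf1r (281 to 473 CPM) were above NHD13 (adjusted p = 0.00426, 0.00158 and 0.00927).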

How the data were processed

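RNA-seq of sorted LSKs was deposited as 1 table of raw counts per gene and library. The submitters' processing notes name STAR, HTSeq, DESeq and the mm9 build, without versions or settings. In the deposited table, 11942 names after a group of March genes stood 2 rows above their counts, so they were moved down by 2, and 13 rows were left unnamed (at most 0.0323% of a library). After the move Xist and Y-linked counts stood on rows that separated the libraries by sex. Counts of all 9 libraries were filtered with filterByExpr, scaled by TMM and fitted with group as the only term by edgeR 4.0.16 (quasi-likelihood test, Benjamini-Hochberg adjustment over all 13355 genes, threshold 0.01). The step was tested on simulated data. Named genes were the 12 largest changes each way with a mean of at least 50 counts, called list members, genes of the sort and study, and called genes that differed most between the NHD13 libraries. The members and lists were chosen with earlier results of these data known. Nothing in the labels says that libraries came from separate mice, so p-values measure the spread between these samples, which may be technical. Same-numbered control and NHD13 libraries deviated together only weakly (correlations 0.194 and 0.132), and the number was not taken as a pairing. Intervals cover counting error only. Promoters came from RefSeq on GRCm38.p6, which is not the build of the counts, and no coordinates of the counts were used. Alternatives were DESeq2 1.42.0, other scalings, filters and thresholds, Y-linked terms, the block and left-out libraries. Results for 1 listed gene are not reported here.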

Additional observations from a re-analysis of the deposited data

Results flagged for a closer look

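The difference between NHD13/MSI2 and NHD13 was tested in the same fit for the genes named above, and 23 passed at an adjusted p under 0.01. Over all 13355 genes tested 423 passed (3.17%). Both contrasts share the NHD13 libraries. Many of the genes were named for large changes or large differences in those libraries, so a return toward control was favoured by the choice. The 23 are therefore no measure of what MSI2 induction does. Among genes that rose in NHD13, the log2 fold change of NHD13/MSI2 over NHD13 was −5.38 for Hoxc8, −11.29 for Casq2, −6.05 for Dsp, −5.42 for Gm595, −4.84 for Pgm5, −4.43 for Tmem47, −8.34 for Dlk1, −2.19 for Il18r1, −4.25 for Eaf2 and −1.44 for Lck. It was 1.71 for Csf1r, 2.30 for Cd5, 2.46 for Cd6 and 1.63 for Padi2, which were higher in NHD13/MSI2 than in NHD13. Among genes that fell in NHD13 it was −5.86 for Hlf, −2.33 for Eltd1, −4.62 for Arhgap32 and −3.07 for Gm13251, which were lower still, and 3.49 for Col4a1 and 1.20 for Runx2, which were higher than in NHD13. Bdh2, at 0 in both NHD13 libraries, had a fitted value of 8.62, which depends on the prior count and is no bound. Of genes not called in NHD13, Meis1 had −5.69 and Car2 −5.24.

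In the NHD13/MSI2 group 1 library lay far from the other 3 for a pair of genes that rose in NHD13: Zfpm2 reached 96.5 CPM in replicate 4 and Hoxc8 1.85 CPM in replicate 3. The rule that picks such libraries also picks some by chance.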

How the results depend on the processing

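All 138 genes called kept their direction in every alternative in which their row had a value (the names as deposited aside). Their lack of overlap with the controls largely fixed this in advance. The count of calls moved. It was 594 with DESeq2 (372 higher, 222 lower, 62.6% higher against 79.7%), 386 at an adjusted p under 0.05 (281 and 105, 72.8% higher), 83 with the 5 control and NHD13 libraries alone (54 higher, 65.1%), 8 with a term for Y-linked counts (8 higher, 0 lower) and 7 with only the libraries that carry Y-linked counts (7 and 0, where 857 genes had an unadjusted p under 0.05). Leaving out 1 library gave 38 to 251 calls, 33 to 182 higher and 2 to 69 lower, the most without NHD13/MSI2 replicate 4, the fewest in all without control replicate 3 and the fewest lower without NHD13 replicate 2. In alternatives added after the data were seen, which leave out all NHD13/MSI2 libraries as well, there were 526 calls (230 higher, 296 lower, 43.7% higher) without NHD13 replicate 1 and 254 (183 and 71, 72.0% higher) without NHD13 replicate 2. The replicate block gave 101 calls (82 higher, 19 lower), 79 of them among the 138, and 203 for NHD13/MSI2 over NHD13. That last count was 423 as reported, 1286 with DESeq2, 1177 at 0.05, 163 with the Y-linked term, 38 in libraries with Y-linked counts and 128 to 646 with 1 library left out. Both fits on Y-linked counts in effect set NHD13 against control replicate 2 alone. The cause of these shifts was not tested.

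Signs turned for genes not called in NHD13, and for Pgm5 (−0.78) and Runx2 (0.99) under the names as deposited, where each name stands on another gene's counts, as for Nup98 (−0.0396), Themis (−0.42) and Top2a (0.0425). Without NHD13 replicate 1 the values were −0.14 for Ptprc, −0.85 for Trat1, −1.68 for Ccr9, −0.25 for Pf4, −1.37 for Vwf, −1.41 for Bcl11b and −0.73 for Il7r, and without the NHD13/MSI2 libraries too −0.13 for Ptprc, −1.68 for Ccr9, −0.25 for Pf4, −1.36 for Vwf and −0.73 for Il7r. With 1 library left out the ranges reached 0.28 for Ptprc, 7.81 for Trat1, 5.25 for Ccr9, 3.90 for Pf4, 8.15 for Bcl11b and 4.03 for Il7r (all without NHD13 replicate 2) and 2.69 for Vwf (without control replicate 1).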
